A study of Mus musculus with 4 samples.

Results

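The genes described here encode the chromatin-reading and polymerizing subunits of Polycomb repressive complex 1 (PRC1) and a pair of related RING1-binding subunits. They were chosen by symbol as a set of 9 genes, namely Cbx2, Cbx6, Cbx7 and Cbx8 of the chromobox (CBX) family, Phc1, Phc2 and Phc3 of the polyhomeotic (PHC) family, and Rybp and Yaf2. Each symbol had a single row among the 54532 genes of the count table, and all 9 were among the 13884 genes with enough reads to test. Shares and sums of the CBX family below cover these 4 genes and not every chromobox gene of the genome.

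RNA was sequenced from mouse primary T cells, which come from animals and are no cell line. They were grown in serum with IL2, a T cell growth factor, and with beads against CD3 and CD28 that stimulate the T cell receptor. There were 2 libraries of untreated cells (Control) and 2 of cells treated with PTC, all labelled 12 h. The labels do not expand PTC and give neither its dose nor the strain, sex, age or tissue source of the animals. Nothing says that replicates are separate cultures or animals, and p-values therefore measure the spread between these 4 libraries alone, which may be technical.

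PRC1 is an E3 ligase that places ubiquitin on histone H2A and helps to keep developmental genes silent. In its canonical form, a CBX protein binds histone H3 trimethylated on lysine 27 through its chromodomain, and a PHC protein joins complexes to each other through a SAM domain that forms polymers. RYBP and YAF2 bind the RING1 ligases at the site that CBX proteins use, so they mark variant complexes that lack a CBX reader of lysine 27. The title of the series concerns BMI1, a partner of the RING1 ligases in canonical complexes, and the comparison asks how the genes of its partner subunits stood with and without PTC.

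No subunit gene passed the test between PTC and Control cells, against 1.35% of all tested genes that did (0.763% lower and 0.591% higher with PTC). Phc1 and Phc3 came closest, at 78.1% and 83.7% of Control, and Phc2, the most abundant of the 9, stood at 95.4%. The 4 CBX genes lay between 105% and 116% of Control, Yaf2 at 101% and Rybp at 81.7%. Per kilobase of gene length, Cbx7 led the CBX genes, Phc2 the PHC genes and Yaf2 its pair with Rybp in each of the 4 libraries.

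Sequence around annotated starts was available from RefSeq (GRCm38.p6) for 6 of the 9 genes. It came as 8 windows of 250 bases before and 50 bases after a start, since Phc2 has 3 annotated starts. These RefSeq starts are not always the outer ends of the genes. The windows of Cbx6, Cbx7 and Phc1, and the later ones of Phc2, lie wholly within the gene coordinates given below. The windows were searched on both strands for the E-box CACGTG, a palindrome bound by MYC-family, MAX and USF factors. It was found in 4 of the 8 windows, one each of Cbx6, Cbx8, Phc2 and Phc3, against 9.78% of the 12705 windows of tested genes and 7.15% of all 32851 windows. The motif was singled out after the letters had been seen, so its share is a description. The 60 bases around each match are shown because Cbx6, Cbx8, Phc2 and Phc3 share it, with the E-box in capitals. The Phc1 window holds no E-box. Its stretch around TGACGT, a half-site of the cyclic AMP response element read on the other strand, is shown with the match in capitals.
Cbx6 (chr15:79834334-79834393, minus strand): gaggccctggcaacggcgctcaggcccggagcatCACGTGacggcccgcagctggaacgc
Cbx8 (chr11:119040979-119041038, minus strand): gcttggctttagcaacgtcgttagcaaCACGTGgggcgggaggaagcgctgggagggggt
Phc2 (chr4:128654618-128654677, plus strand): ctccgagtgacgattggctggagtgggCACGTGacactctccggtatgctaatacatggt
Phc3 (chr3:30969465-30969524, minus strand): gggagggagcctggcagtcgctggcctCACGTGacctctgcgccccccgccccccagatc
Phc1 (chr6:122340228-122340287, minus strand): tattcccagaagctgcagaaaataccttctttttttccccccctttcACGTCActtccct

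The first base of the E-box lay 26 bases before the RefSeq start of Cbx6, 98 before that of Cbx8, 57 before that of Phc2 and 82 before that of Phc3. For Cbx6 this position is inside the gene coordinates given below. The windows differed in their content of CG dinucleotides, the sites of DNA methylation, which are dense at the starts of many Polycomb-bound genes. The Phc1 window held 9 of them and that of Phc3 held 15, both under the median of 20 over windows of tested genes. The Cbx6, Cbx7 and Cbx8 windows held 31, 33 and 24. The 3 windows of Phc2 ranged from 2 to 45, so its starts are unlike each other in this respect. Of the genes with the E-box, Cbx6 and Cbx8 had positive fold changes and Phc2 and Phc3 negative ones, and none was called. The signs of Cbx6 and Cbx8 turned when a single library was left out. A relation between the E-box and the direction of change was not tested. A further 7 motifs were searched in the same way. Letters of the NRF1 motif (GCATGCGC) were in 1 window against 5.08%. Letters of the YY1 motif (AAGATGGCG) were found in 1 window, that of Phc3, against 2.96%. The full cyclic AMP response element (TGACGTCA) was in 1 window, that of Cbx8, against 2.98%. Its half-site (TGACGT), which also lies within each full element, was in 2 windows against 11.4%. The CCAAT box was in 4 windows against 37.6%. The GC box (GGGCGG) was in 6 windows against 61.5%. The core of the ETS motif (CCGGAA) was in 1 window against 27.1%.

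Libraries held 15458818 to 16639911 counts in total. Levels are given as TMM-scaled CPM, that is, counts scaled to the library size after correction by the trimmed mean of M values, and levels of different genes are compared only per kilobase of gene length. All 11 T cell markers, Cd3e, Cd4 and Cd8a among them, were detected, and their sum ran from 4677 to 4851 CPM in Control and from 5116 to 5255 CPM in PTC libraries. None of the 11 passed the test, and all fold changes were positive (median log2 0.13). At an unadjusted edgeR p under 0.05, 5 were higher and 0 lower, against 6.01% and 6.89% of tested genes. For 7 of the 11 both PTC libraries lay above both Control libraries, against 21.3% of tested genes. Other cells were present. The 12 monocyte, macrophage and neutrophil markers summed to 1082 and 1089 CPM in Control and to 1524 and 1345 CPM in PTC, with 2 called higher (Lyz2 and S100a8) and 3 lower (Cd14, Mpo and Elane) and none at 0. Lyz2 alone held 865 and 887 CPM in Control and 1358 and 1176 CPM in PTC. The other 11 markers summed to 217 and 201 CPM in Control and to 166 and 169 CPM in PTC, with Mpo at a log2 fold change of -1.70 and Elane at -2.36. The 8 B cell markers summed to 525 to 533 CPM in Control and 560 to 570 CPM in PTC, with 1 higher. Of the 3 NK cell markers 1 was tested, of the 4 dendritic cell markers 3 (Siglech at 0 in every library), and of the 4 erythroid markers 3 (Alas2 at 0 in every library), with no call in any of these lists. Their sums were 2.30 to 3.07, 15.7 to 21.2 and 1.70 to 3.45 CPM. The part of these cells in the values of the subunit genes was not tested. In bulk RNA, fewer cells of a type and less RNA per cell cannot be told apart.

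**Figure D1:**
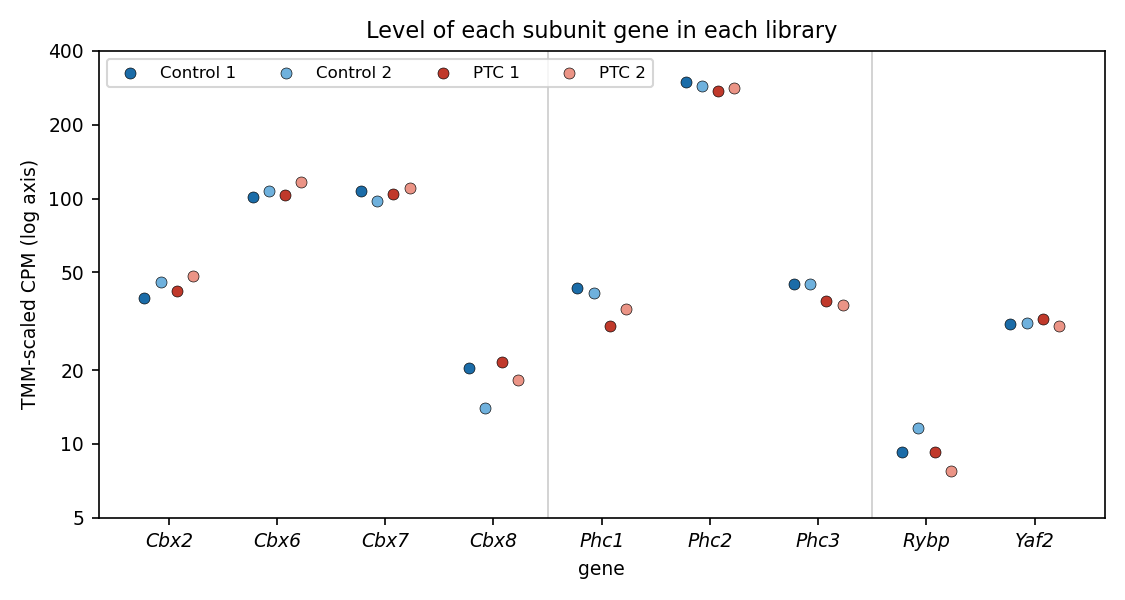
Level of each of the 9 subunit genes in each of the 4 libraries, as TMM-scaled CPM on a log axis, with 1 point per library and vertical lines between the CBX, PHC and RYBP/YAF2 groups. Both PTC points lie below both Control points for Phc1, Phc2 and Phc3, and the groups overlap for the other 6 genes.

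Among the polymerizing subunits, Phc1 (ENSMUSG00000040669, chromosome 6, 122317731 to 122340561, minus strand, GRCm38) encodes a PHC paralog. Loss of Phc1 in mice alters the axial skeleton and blood stem cells. Its level was 43.1 and 41.0 CPM in the Control libraries and 30.2 and 35.5 CPM in the PTC libraries. The groups did not overlap, and PTC 1 was the lowest. The PTC level was 78.1% of Control (log2 fold change -0.36 ± 0.11, standard error), with a 95% interval from 66.9% to 91.3%. By the quasi-likelihood test of edgeR the unadjusted p was 0.0037. Adjusted by Benjamini-Hochberg over all 13884 genes it was 0.121, so Phc1 was not called. Of all tested genes, 8.47% had a lower fold change. Without PTC 1 the log2 fold change was -0.25 and the adjusted p 0.868.

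Phc3 (ENSMUSG00000037652, chromosome 3, 30899371 to 30969415, minus strand), the third paralog with a SAM domain, stood at 44.8 and 45.0 CPM in Control and at 38.2 and 37.0 CPM in PTC libraries. The replicates lay within 1.03-fold of each other in both groups, and the groups did not overlap. The PTC level was 83.7% of Control (log2 fold change -0.26 ± 0.10, standard error), with a 95% interval from 72.7% to 96.3%. The unadjusted p was 0.016 and the edgeR adjusted p 0.243. With any single library left out the log2 fold change stayed between -0.28 and -0.23, the narrowest range among the PHC genes.

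Phc2 (ENSMUSG00000028796, chromosome 4, 128654702 to 128752881, plus strand) encodes the paralog whose SAM polymers cluster Polycomb complexes into nuclear bodies in mouse cells. It stood at 298 and 286 CPM in Control and at 274 and 283 CPM in PTC libraries. PTC 2 lay just under Control 2, so the groups were apart by a small gap. Its log2 fold change was -0.07 ± 0.07 (standard error, edgeR adjusted p = 0.760), and the interval, from 85.6% to 106% of Control, includes no change.

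All 3 PHC genes therefore had both PTC libraries under both Control libraries, which 22.2% of all tested genes also had (21.3% had both PTC libraries above, and 43.6% had groups apart in either direction). At an unadjusted p under 0.05 there were 2 of the 3, both lower, where 6.89% of tested genes were lower and 6.01% higher at that p. The summed PHC level per kilobase was 51.8 ± 1.44 in Control and 47.8 ± 1.59 in PTC cells (SD, n = 2 each, CPM per kb), most of it from Phc2.

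**Figure D2:**
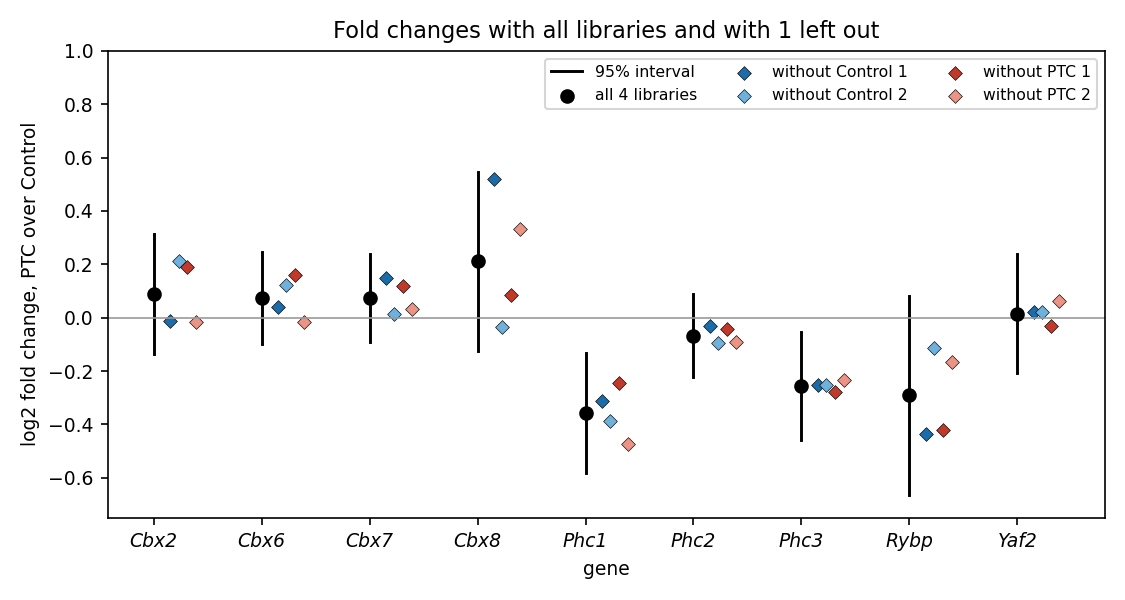
Log2 fold change of PTC over Control for each gene with its 95% interval (black, all 4 libraries) and with each library left out in turn (coloured diamonds). The intervals of Phc1 and Phc3 lie below 0, and the diamonds of Cbx2, Cbx6, Cbx8 and Yaf2 lie on both sides of it.

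The CBX genes encode the readers of trimethylated lysine 27. Cbx7 (ENSMUSG00000053411, chromosome 15, 79915807 to 79971119, minus strand), the CBX paralog known for repressing the INK4 locus and for self-renewal of mouse embryonic and blood stem cells, stood at 107 and 97.7 CPM in Control and at 104 and 111 CPM in PTC libraries. The PTC values bracketed the higher Control value, and the groups overlapped. The difference was smaller than the spread (log2 fold change 0.07 ± 0.08, standard error, edgeR adjusted p = 0.758), with a 95% interval from 93.8% to 118% of Control. Exons of Apobec3 on the opposite strand cover 1.54% of its exon bases.

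Cbx6 (ENSMUSG00000089715, chromosome 15, 79823896 to 79834688, minus strand), a less studied paralog, lies 81118 bases from Cbx7 on the same chromosome. It stood at 101 and 108 CPM in Control and at 103 and 117 CPM in PTC libraries, and the groups overlapped. The log2 fold change of 0.07 ± 0.08 (standard error, edgeR adjusted p = 0.764) turned to -0.02 without PTC 2. Exons of Npcd on the same strand cover 5.31% of the Cbx6 exon bases, and the count of Cbx6 depends on how reads there were assigned.

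Cbx2 (ENSMUSG00000025577, chromosome 11, 119022962 to 119031270, plus strand) encodes the paralog that compacts chromatin and is needed for male sex determination in mice. Its level was 39.2 and 45.9 CPM in Control and 42.0 and 48.5 CPM in PTC libraries. The PTC values interleaved with the Control values. Its fold change, 0.09 ± 0.11 on the log2 scale (standard error, edgeR adjusted p = 0.784), turned to -0.01 without Control 1 and to -0.02 without PTC 2.

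Cbx8 (ENSMUSG00000025578, chromosome 11, 119036305 to 119040969, minus strand) encodes a paralog that takes part in repression of the INK4 locus and was found as a partner of leukemia fusion proteins. Its gene lies 5034 bases from Cbx2, on the other strand. It stood at 20.4 and 14.0 CPM in Control and at 21.6 and 18.2 CPM in PTC libraries. Control 2 was low, and the other 3 libraries lay above it, from 18.2 to 21.6 CPM. The 2 Control libraries differed 1.46-fold, more than for any other of the 9 genes, on 319 and 222 counts. On the log2 scale the fold change was 0.21 ± 0.16 (standard error, edgeR adjusted p = 0.625). Without Control 1, the fit that keeps the low Control library, it was 0.52 with an adjusted p of 0.095, and without Control 2 it was -0.03. The neighbours Cbx2 and Cbx8 did not vary together: Control 2 was the higher Control library for Cbx2 and the lower one for Cbx8, and PTC 2 was likewise the higher PTC library for Cbx2 and the lower one for Cbx8.

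None of the 4 CBX genes passed the edgeR test (0 also by limma-voom, which called 1.41% of genes, and by DESeq2, which called 1.93% of those it gave an adjusted p). At an unadjusted p under 0.05 there were 0, against 12.9% of tested genes. The groups overlapped for all 4. Their summed level per kilobase was 40.3 ± 0.679 in Control and 43.0 ± 2.02 in PTC cells (SD, n = 2 each, CPM per kb).

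Rybp (ENSMUSG00000072872, chromosome 6, 100228565 to 100287485, minus strand) encodes the subunit that binds ubiquitinated histone H2A and stimulates variant PRC1. It had the fewest reads of the 9, 127 to 185 per library, and stood at 9.26 and 11.6 CPM in Control and at 9.30 and 7.79 CPM in PTC libraries. Control 1 and PTC 1 were nearly equal, so the groups overlapped. Its fold change of -0.29 ± 0.18 on the log2 scale (standard error, edgeR adjusted p = 0.527) had an interval from 63.0% to 106% of Control. With single libraries left out it ranged from -0.44 to -0.11. Of the 50-base words of its longest transcript, 9.50% are also found in the pseudogene Rybp-ps.

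Yaf2 (ENSMUSG00000022634, chromosome 15, 93284278 to 93336935, minus strand), the homolog of Rybp, stood at 30.9 and 31.0 CPM in Control and at 32.3 and 30.2 CPM in PTC libraries. The PTC values lay on either side of the Control values. The fold change was near 0 (log2 0.02 ± 0.11, standard error, edgeR adjusted p = 0.976), with an interval from 86.5% to 118% of Control. Its sign turned with library totals as the only scaling (-0.03) and without PTC 1 (-0.03).

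**Figure D3:**
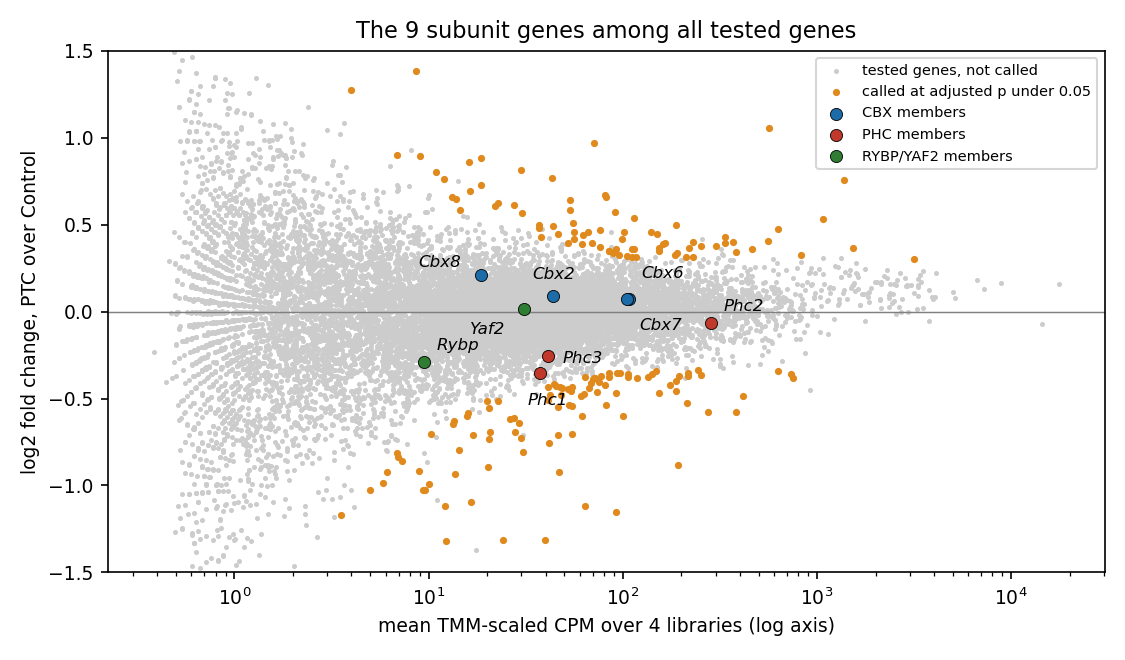
Log2 fold change of PTC over Control against mean level over the 4 libraries (log axis) for all 13884 tested genes, with called genes in orange and the 9 subunit genes in colour by family. The subunit genes lie inside the cloud of genes that were not called, and 47 genes fall beyond the plotted range of fold changes.

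Over the 9 genes together, 0 passed by edgeR, 0 by limma-voom and 0 by DESeq2, and 2 had an unadjusted p under 0.05 (Phc1 and Phc3). Of all tested genes 12.9% had such a p, and 1.35% were called by edgeR, 188 genes of which 82 were higher and 106 lower. That lean moved with the processing: 71 were higher and 205 lower with library totals as the only scaling, 118 and 107 with upper-quartile scaling, 109 and 97 by DESeq2, and 276 and 146 without Control 1. The median log2 fold change was 0.02 over the 9 genes and -0.003 over all tested genes. In simulated counts for these 13884 genes the same test recovered 22% of 1.3-fold changes and 64% of 1.5-fold changes; 9 unchanged genes were called. Most 1.3-fold changes were thus missed there with 2 libraries a group. The simulated spread followed the trend with level rather than each gene's own spread. Changed genes were drawn from all tested genes, so these rates are not those of the 9 genes.

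Paralog usage was compared within each family as the share of the family's level per kilobase. The order of levels over the 9 genes, as the mean over the 4 libraries in CPM per kb, was Phc2 (40.4), Yaf2 (16.6), Cbx7 (16.2), Cbx2 (10.3), Cbx6 (10.1), Phc1 (7.07), Cbx8 (5.04), Phc3 (2.36) and Rybp (2.00). Neighbours whose ranges over the libraries overlapped were Yaf2 with Cbx7, Cbx2 with Cbx6, Phc1 with Cbx8, and Phc3 with Rybp. Phc2 stood clear of every other gene, at 38.8 to 42.2 CPM per kb.

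Phc2 held 79.7% ± 0.0394 of the PHC level in Control and 82.5% ± 0.772 in PTC cells (SD, n = 2 each). It was the major paralog in every library, and its share was higher in both PTC libraries than in both Control libraries. The share of Phc1 was 15.4% and 15.2% in Control against 12.2% and 13.7% in PTC libraries, and that of Phc3 was 4.85% and 5.06% against 4.68% and 4.33%. The order of Phc1 and Phc3 depends on the length. By reads their mean shares were 10.3% and 11.3%, with annotated exons of 5297 bases for Phc1 and 17485 for Phc3. Per kilobase, Phc1 stood at 0.193 and 0.191 times the level of Phc2 in Control and at 0.147 and 0.167 times in PTC libraries. These are the same counts as in the fold changes above, and with 2 libraries a group an exact two-sided permutation test cannot go below p = 0.333, so no test was run on shares.

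Within the CBX family, Cbx7 held 40.4% and 37.9% of the level in Control and 38.7% and 38.5% in PTC libraries. Cbx2 and Cbx6 held about equal parts, 22.6% to 27.1% and 23.4% to 25.5% over the 4 libraries, and Cbx8 held 9.54% to 14.1%. The shares of all 4 overlapped between the groups. The near equality of Cbx2 and Cbx6 depends on the length used: with that of the longest coding transcript, an alternative chosen after seeing the data, their mean shares were 17.4% and 27.9%, and that of Cbx8 was 7.83%. By reads instead of level per kilobase, Cbx2 held 16.0% and Cbx8 6.76%, and Cbx6 (39.0%) and Cbx7 (38.3%) were about level, because the annotated exons of Cbx6 add up to 10609 bases and those of Cbx7 to 6487.

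In the RYBP and YAF2 pair, Yaf2 stood per kilobase at 8.45 and 6.74 times the level of Rybp in Control and at 8.80 and 9.82 times in PTC libraries. Its share of the pair was 88.3% ± 1.65 in Control and 90.3% ± 0.686 in PTC cells (SD, n = 2 each). Both PTC libraries lay above both Control libraries, by a gap that was small for Control 1.

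**Figure D4:**
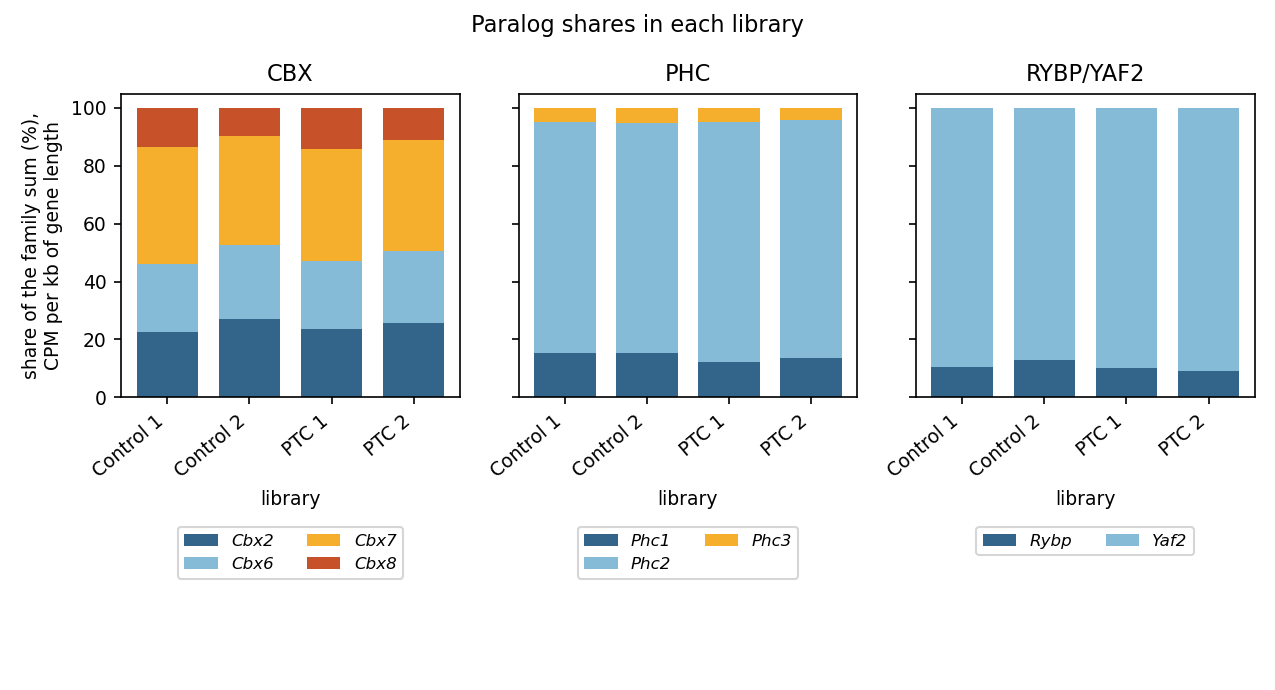
Share of each paralog in its family's summed level (CPM per kb of gene length, in percent) in each of the 4 libraries, as stacked bars for CBX, PHC and RYBP/YAF2. Phc2 and Yaf2 take most of their families in every library, while the CBX level is spread over 4 genes with Cbx7 at 37.9% to 40.4%.

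The other genes of Polycomb and related chromatin complexes were read from fixed lists. Beside the counts below, 1.35% of all tested genes were called, 12.9% had an unadjusted p under 0.05, and 50.7% had negative fold changes. Of 8 partners in canonical PRC1, 7 were tested and 0 passed (0 by limma-voom and DESeq2, 0 at an unadjusted p under 0.05), with 5 negative fold changes and a median of -0.10. Rnf2, the gene of the RING1B ligase, had the smallest p among them, at 30.6 and 32.2 CPM in Control and 26.1 and 28.7 CPM in PTC libraries (log2 fold change -0.20, adjusted p = 0.476). Bmi1 had a log2 fold change of 0.03 and the groups overlapped.

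Of 21 partners in variant PRC1, 20 were tested, 1 rose and 0 fell (1 by limma-voom and 1 by DESeq2), with a median of -0.04. Of all tested genes 1.35% were called. At an unadjusted p under 0.05 there were 2 higher and 2 lower, against 12.9% of all tested genes in either direction. The gene that rose was Tfdp1, which encodes the DP1 partner of E2F factors, E2F6 in variant PRC1 among them. It stood at 210 and 230 CPM in Control and at 294 and 276 CPM in PTC libraries. This was a log2 fold change of 0.38 ± 0.08 (standard error, edgeR adjusted p = 0.019). Tfdp1 was also called by limma-voom (adjusted p = 0.011), by DESeq2 (adjusted p = 0.000867) and under the other scalings. The call was lost without PTC 1 (log2 fold change 0.33) and without PTC 2 (0.42). It was kept without Control 1 (0.32) and without Control 2 (0.45). Each of these fits leaves 1 library in a group.

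None of the 12 PRC2 subunit genes, whose complex writes the mark that CBX proteins read, passed (0 by limma-voom and DESeq2, 2 at an unadjusted p under 0.05, both higher). Of all tested genes, 12.9% had such a p, and 6.01% had it with a higher level in PTC. Fold changes were positive for 9 of the 12 (median log2 0.07), and for 6848 of all 13884 tested genes. Rbbp7, a histone-binding subunit gene, had the smallest p (log2 fold change 0.22, adjusted p = 0.210). Without Control 2 it passed (0.30, adjusted p = 0.026).

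The 3 HP1 chromobox genes, whose proteins read methylated lysine 9 rather than lysine 27, had no call (0 by limma-voom and DESeq2, 0 unadjusted) and a median of 0.01. Cbx5, the gene of HP1 alpha, had the smallest p (log2 fold change 0.11, adjusted p = 0.585). Of 7 other chromodomain readers of methylated H3, 0 passed (0 by both other tools, 1 higher and 1 lower unadjusted, median -0.04), with Chd1, a remodeller gene, at -0.21 (adjusted p = 0.313). Of 8 genes for the removal of ubiquitin from H2A, 0 passed (0 by both other tools, 1 higher unadjusted, median -0.05), with Foxk2, a forkhead partner of the deubiquitinase BAP1, at 0.18 (adjusted p = 0.337).

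The 2 genes of lysine 27 demethylases had no call (0 by both other tools, 0 unadjusted, median -0.02), with Kdm6b at -0.04 (adjusted p = 0.878). Of 5 other genes with SAM or MBT domains, 4 were tested and 0 passed (0 by both other tools, 0 unadjusted, median 0.11), with Sfmbt1 at 0.14 (adjusted p = 0.732). Of the 2 genes of the INK4 locus that CBX7 and CBX8 are known to repress, Cdkn2b, the gene of the CDK inhibitor p15, stood at 1.34 and 1.95 CPM in Control and at 0.651 and 0.675 CPM in PTC libraries. Both PTC libraries were lower, on 10 and 11 counts against 21 and 31. This was -1.30 ± 0.46 on the log2 scale (standard error, edgeR adjusted p = 0.205). Cdkn2a stood at 2.24 and 1.26 CPM in Control and at 2.21 and 1.96 CPM in PTC libraries, and the groups overlapped. Its log2 fold change, 0.26 ± 0.37 (standard error), was smaller than its error, so its direction is unclear. Neither gene passed (0 by limma-voom, no adjusted p from DESeq2 for either, 1 lower unadjusted, list median -0.52).

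**Figure D5:**
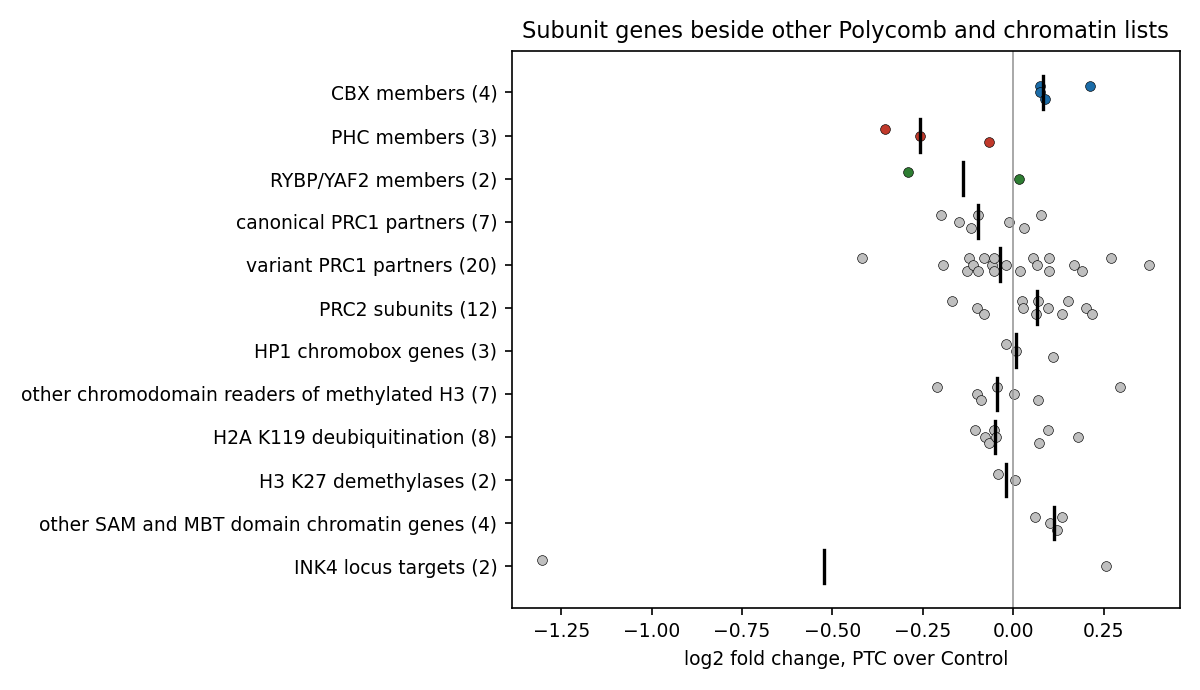
Log2 fold change of PTC over Control for the subunit genes by family (colour) and for the tested genes of 9 other Polycomb and chromatin lists (grey), with the number of tested genes in parentheses and the median as a black bar. The PHC genes lie at -0.36, -0.26 and -0.07, and the list medians lie between -0.10 and 0.11 except that of the INK4 locus.

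Among the members and the 65 tested genes of these lists, the gene nearest to Cbx7 by the Euclidean distance of centred log2 CPM over the 4 libraries was Rbbp4 (0.076, against a median distance of 0.241 over 73 genes), and the nearest to Yaf2 was Fbrsl1 (0.043, against 0.185). With 4 libraries, small distances are found between many genes of little change, and nothing more is read from them.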

How the data were processed

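The deposited table holds whole-number counts of reads per gene, which the authors did not normalize. Per the submitters' processing notes, CASAVA 1.8, HISAT2 2.0.5 and featureCounts 1.5.0-p3 were used. Build, strand setting and treatment of reads with several matches: not given in the sources used here. GENCODE M21 (GRCm38) held 54495 of the gene IDs, 98.3% of them at the same coordinates. A further 2 count columns matched no sample and were not used.

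Genes were filtered with filterByExpr, scaled by TMM and compared with edgeR 4.0.16 in R 4.3.3 (quasi-likelihood test, group alone, called at an adjusted p under 0.05). A standard error is the log2 fold change over the root of F, and intervals (95%) use its t quantile. Replicates differed beyond sampling noise (chi-square over its degrees of freedom 7.51 between Control and 4.68 between PTC libraries). A count of 0 allows up to 0.180 to 0.194 CPM (3 counts, counting error only). Simulated counts served as a test. Levels per kilobase use the deposited gene length. limma-voom (limma 3.58.1), DESeq2 1.42.0, other scalings, no filter, a replicate block and single libraries left out were the alternatives.

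The members and lists were chosen with earlier results of these data known. Named genes are the 9 members, the called genes of each list or else the gene with the smallest p, and the nearest gene to the leading CBX and RYBP/YAF2 members; that to Phc2 is not reported here. Bmi1 and Cdkn2a fall outside this rule and were added after their values were seen.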

Additional observations from a re-analysis of the deposited data

How the results depend on the processing

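None of the 9 subunit genes was called under RLE, upper-quartile or total-count scaling, without a filter on low counts, by limma-voom or DESeq2, with the replicate block, or with any single library left out, where the count of members called was 0 to 0. Over all tested genes, 188 were called, 432 without the filter, and 76 to 422 with a library left out (76 without PTC 1, 422 without Control 1, 337 without Control 2). The replicate block gave 237, and the numbers are not said to pair samples. Deviations of same-numbered libraries correlated at -0.05 over all tested genes and -0.22 among the genes above the median level. With the numbers crossed, an alternative chosen after seeing the data, 699 genes and 1 of the 9 members (Phc1) were called, as was Rbbp7. Phc1, Phc2, Phc3, Rybp and Cbx7 had the same sign under all 12 alternatives. Fold changes near 0 turned for Cbx2 (-0.011 without Control 1, -0.018 without PTC 2) and Cbx6 (-0.017 without PTC 2). They also turned for Yaf2 (-0.026 with library totals alone, -0.032 without PTC 1) and Kdm6b (0.027 without PTC 1). That of Cbx8 was larger, 0.21 with all 4 libraries, and turned to -0.0335 without Control 2, its low Control library. With single libraries left out, log2 fold changes ran from -0.018 to 0.21 for Cbx2, -0.017 to 0.16 for Cbx6, -0.0335 to 0.52 for Cbx8, -0.032 to 0.064 for Yaf2 and -0.114 to 0.027 for Kdm6b. The mean share of Cbx7 (38.9%) was 46.9% with the length of the longest coding transcript, an alternative chosen after seeing the data. That of Phc2 (81.1%) was 78.4% by reads, 85.1% with that length and 80.5% to 81.6% with a library left out. That of Yaf2 (89.3%) was 76.7% by reads, and its difference between groups, 2.03 percentage points, was 3.76 by reads and 0.861 to 3.19 with a library left out. Rybp had 127 to 185 counts per library.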
